A study of Mus musculus with 10 samples.

Results

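Nr4a2, Nxph4, Cplx3, Ctgf (also named Ccn2) and Moxd1 are genes used to mark subplate and layer 6b neurons of the mouse cortex. These 5 genes were taken by name out of 56398 gene names and joined loci in the deposited tables. The rule used no measured value, but the choice was made with earlier results of these data known. RNA was sequenced from somatosensory cortex of mice in which Nsd1, the gene of a histone lysine methyltransferase, was conditionally knocked out (cKO). By its title and design text the series asks what the methyltransferase does for neuronal identity. In the Nex model, sampled at 2.5 months, 3 Nsd1Nex-cKO libraries were compared with 3 controls, of which replicates 1 and 2 were labelled Nsd1fl/+ and replicate 3 Nsd1fl/fl. In the Camk2a model, sampled at 3 months, 2 Nsd1Camk2a-cKO libraries were compared with 2 controls, both labelled Nsd1fl/+. Nex-Cre acts in excitatory neurons from soon after they are born, and Camk2a-driven Cre in excitatory neurons of the maturing forebrain. The labels name neither litter nor batch, and leave unsaid whether controls carried Cre and whether each library was a separate mouse. P-values therefore measure the spread between these libraries, which may be technical.

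Subplate neurons are among the earliest neurons made in the cortex. They sit below the cortical plate, receive thalamic input before the layers above are mature, and guide the first connections between thalamus and cortex. Many are lost after birth, and the survivors form layer 6b, a thin sheet next to the white matter whose cells respond to orexin and other wakefulness signals. Excitatory neurons of layer 6 proper, the corticothalamic cells, lie just above and express a different set of genes.

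The proteins have unrelated jobs. Nr4a2 (Nurr1) is an orphan nuclear receptor and transcription factor, known for its need in midbrain dopamine neurons and for its induction by neuronal activity. Nxph4 is a neurexophilin, a secreted glycoprotein that binds alpha-neurexins at synapses. Cplx3 is a complexin, a small protein that clamps and promotes SNARE-driven vesicle fusion. Ctgf is a secreted matrix-associated growth factor of the CCN family and a target of the YAP and TEAD transcription factors. Moxd1 belongs by sequence to the copper monooxygenases, the family of dopamine beta-hydroxylase.

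In GRCm38, as the 3-month table gives positions, Nr4a2 (ENSMUSG00000026826) lies on the minus strand at chr2:57106830-57124003. Cplx3 (ENSMUSG00000039714) lies on the minus strand at chr9:57599992-57606281. The other 3 genes are on chromosome 10. Nxph4 (ENSMUSG00000040258) is at chr10:127525473-127534559 on the minus strand. Moxd1 (ENSMUSG00000020000) is at chr10:24223517-24302790 and Ctgf (ENSMUSG00000019997) at chr10:24595442-24598683, both on the plus strand. Moxd1 and Ctgf are thus neighbours.

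The promoter of Nr4a2 is shown because Nr4a2 is known for its induction by neuronal activity and its values are set beside those of other activity-induced genes, and that of Cplx3 stands beside it for contrast. Both are the 250 bases before the annotated start from RefSeq (GRCm38.p6), on the gene's own strand. Capitals mark the motif matches.
Nr4a2, chr2:57124004-57124253, minus strand: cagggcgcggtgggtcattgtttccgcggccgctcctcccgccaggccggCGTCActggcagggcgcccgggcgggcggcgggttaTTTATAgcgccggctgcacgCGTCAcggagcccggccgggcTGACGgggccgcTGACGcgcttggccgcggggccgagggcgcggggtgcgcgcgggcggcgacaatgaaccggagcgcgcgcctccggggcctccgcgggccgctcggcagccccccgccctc
Cplx3, chr9:57606282-57606531, minus strand: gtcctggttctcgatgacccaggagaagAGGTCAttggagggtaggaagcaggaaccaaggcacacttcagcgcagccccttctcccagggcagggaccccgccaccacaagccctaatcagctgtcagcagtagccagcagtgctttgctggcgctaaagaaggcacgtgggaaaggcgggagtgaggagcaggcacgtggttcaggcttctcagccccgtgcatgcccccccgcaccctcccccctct
The letters searched on both strands were TGACG (a half-site of the cAMP response element), AGGTCA (a nuclear receptor half-site), GGAATG (TEAD) and TATAAA. Nr4a2 held TGACG 4 times, on its own strand at -123 and -111 and on the opposite strand at -200 and -144, counted to the leftmost base with -1 as the last base before the start. It also held TATAAA once, on the opposite strand at -164. Cplx3 held AGGTCA once, at -222 on its own strand, and the same window of Moxd1 held none of the 4 motifs. None of these matches overlapped another. Of 32851 RefSeq windows of this length, 17.8% held TGACG at least once and 0.137% at least 4 times. AGGTCA was in 14% of windows, GGAATG in 12.6% and TATAAA in 12.4%. These are letter matches and were not tested as binding sites.

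Values are FPKM, fragments per kilobase scaled to each library's mapped fragments, so levels of different genes can be set side by side within a table but not between the tables. In the Nex controls the mean levels ran from Ctgf (19.2 FPKM ± 3.79, SD, n = 3) through Nr4a2 (9.65 ± 4.85), Cplx3 (8.37 ± 0.256) and Nxph4 (3.63 ± 0.516) to Moxd1 (1.69 ± 0.0682). The ranges of Nr4a2 and Cplx3 overlapped, and those of the other neighbours in this order did not, although the highest Nr4a2 library (15.2 FPKM) came close to the lowest Ctgf library (15.7 FPKM). In the Camk2a controls the order was Nr4a2 (14.9 FPKM ± 1.70, SD, n = 2), Ctgf (10.9 ± 1.85), Cplx3 (7.46 ± 0.304), Nxph4 (1.96 ± 0.0779) and Moxd1 (1.32 ± 0.00991), with no overlap between neighbours. All 5 genes passed the filter of at least 1 FPKM in both tables.

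Each change is the cKO mean minus the control mean of log2(FPKM + 1), tested with limma and adjusted by Benjamini-Hochberg over all genes of the table. "Higher", "lower", "rose" and "fell" are kept for adjusted p under 0.05. None of the 5 genes passed that threshold in either model. Over all genes, 8.53% of 12528 passed in the Nex model (4.47% higher and 4.06% lower) and 0% of 12919 in the Camk2a model, where 6.96% had an unadjusted p under 0.05. With bulk tissue, fewer cells of a type and less RNA per cell cannot be told apart. The 2.5-month table holds no counts and its depth is unknown. Reads could be recovered for the 3-month table, 16901717 to 20074933 per library.

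Libraries of the Nex model differed in ways the groups do not explain. The cKO replicate 3 library held Ddx3y, a Y-linked gene, at 16.2 FPKM and Xist at 0.0035 FPKM, whereas the other 5 had Ddx3y at 0 and Xist at 33.6 to 46.5 FPKM. In that library 41.6% of the summed FPKM fell on unnamed loci, against 2.33% to 19.4% in the others. All 4 Camk2a libraries expressed Ddx3y, at 10.98 to 12.4 FPKM. The deleted gene is a weak check here. The 2.5-month table joins Nsd1 with its neighbour Prelid1, and this locus averaged 132 FPKM in controls and 105 in cKO (adjusted p = 0.0863 for a log2 change of -0.34). In the 3-month table Nsd1 itself was 5.61 and 8.87 FPKM in controls and 4.31 and 4.99 in cKO (log2 change -0.52, adjusted p = 0.685).

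Ctgf came closest to the threshold. It was 23.2, 18.8 and 15.7 FPKM in Nex controls 1 to 3 and 10.04, 15.5 and 9.14 FPKM in Nex cKO 1 to 3. All cKO libraries lay below all controls, with cKO 2 just under control 3. The cKO mean was 0.600 of the control mean (11.6 FPKM ± 3.43 against 19.2 ± 3.79, SD, n = 3). The log2 change was -0.71 (SE 0.19, 95% interval -1.14 to -0.27, unadjusted p = 0.00535, adjusted p = 0.0575). Of the 6 fits that each left out 1 Nex library, only that without cKO 2 passed the threshold (change -0.92, adjusted p = 0.00735). Without control 1 the change was -0.57 (adjusted p = 0.195), and without cKO 3 it was -0.57 (adjusted p = 0.113). Ctgf was 9.57 and 12.2 FPKM in Camk2a controls and 12.4 and 9.21 in cKO. Both control values lay between those of the cKO libraries, and the log2 change was -0.01 (SE 0.17, 95% interval -0.43 to 0.41, adjusted p = 0.995).

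Endothelial and mural cells also make Ctgf. Of 12 vascular and meningeal markers tested, 2 were lower, 0 higher, and 10 had a negative change (median -0.13). Mean FPKM of the tight junction gene Cldn5 was 39.9 in controls and 25.5 in cKO, a fall of its log2 value with an adjusted p = 0.0391 (change -0.63, SE 0.15), and Egfl7, an endothelial secreted factor, fell by 0.85 on that scale (SE 0.14, adjusted p = 0.00689). Cldn5 lost its call without control 1, control 3, cKO 1 or cKO 3 (adjusted p = 0.144, 0.134, 0.0724 and 0.0553), and Egfl7 kept its call without any one library. The summed level of the markers with an entry of their own was 95.4 to 121 FPKM in controls and 73.1 to 85.3 FPKM in cKO. Much of that sum came from Cldn5 and from Egfl7, whose mean was 23.4 FPKM in controls and 12.4 in cKO. The mural markers Rgs5, Kcnj8, Pdgfrb and Abcc9 had log2 changes of -0.01, 0.07, 0.09 and -0.04 (adjusted p = 0.964, 0.850, 0.672 and 0.879). Flt1 and Pecam1, which also mark endothelium, had log2 changes of -0.15 (adjusted p = 0.366) and -0.11 (adjusted p = 0.520). Kdr, a further endothelial marker, was 2.66, 2.29 and 2.55 FPKM in controls and 1.61, 1.92 and 1.35 in cKO. Its log2 change was -0.42 (adjusted p = 0.0674), and that of Vwf was -0.11 (adjusted p = 0.635). No marker of this list was at 0, although Lum, a fibroblast gene, stayed under the filter at 0.251 to 0.774 FPKM. The part of these cells in the Ctgf values was not tested.

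Other genes of the Ctgf family and pathway did not pass the test. In the Nex model 0 of 4 tested CCN genes did: Cyr61 had a log2 change of -0.27 (adjusted p = 0.620), Nov of 0.21 (adjusted p = 0.353) and Wisp1 of 0.03 (adjusted p = 0.928). Cyr61, which like Ctgf is a YAP target, was highest in the library where Ctgf was lowest, at 4.23 FPKM in cKO 3 against 1.29 to 3.09 FPKM elsewhere. Wisp2 and Wisp3 stayed under the filter. Of 11 YAP, TAZ and TEAD genes, 6 were tested and 0 passed, with a median log2 change of -0.01 and a range of -0.27 (Amotl2, adjusted p = 0.141) to 0.13. Yap1 itself was 5.23 to 6.33 FPKM in every Nex library. The Camk2a model had 0 of 4 CCN genes and 0 of 6 pathway genes past the threshold.

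Nxph4 was the one member whose Nex values lay above control. It was 4.22, 3.35 and 3.31 FPKM in controls 1 to 3 and 5.48, 11.04 and 4.49 FPKM in cKO 1 to 3. All cKO libraries lay above all controls, and cKO 2 stood well above the other 5 libraries. The cKO mean was 1.93 times the control mean (7.0 FPKM ± 3.53 against 3.63 ± 0.516, SD, n = 3). The log2 change was 0.71 (SE 0.26, 95% interval 0.13 to 1.29, unadjusted p = 0.0221, adjusted p = 0.135). Without cKO 2 the change was 0.37 (adjusted p = 0.123), and without cKO 3 it was 0.94 (adjusted p = 0.0433). Nxph4 was 2.01 and 1.90 FPKM in Camk2a controls and 2.45 and 1.88 in cKO, with overlapping groups (log2 change 0.09, SE 0.15, 95% interval -0.26 to 0.45, adjusted p = 0.932). These values rest on 53 to 73 reads per library, whose counting error alone is 11.7% to 13.7%.

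Of the other neurexophilins and the neurexins they bind, 0 of 7 genes, Nxph4 included, passed in the Nex model. Nxph1, a ligand made by interneurons, had a log2 change of 0.12 (adjusted p = 0.601), Nxph2 of 0.10 (adjusted p = 0.781) and Nxph3, which marks deep-layer neurons, of -0.15 (adjusted p = 0.390). The receptors Nrxn2 and Nrxn3 had log2 changes of 0.04 and -0.09 (adjusted p = 0.844 and 0.648). The change of Nxph4 was thus the one farthest from 0 among the 7, with a list median of 0.10. Of the 7 genes 6 were tested in the Camk2a model and 0 passed.

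Nr4a2 was, of the 5 genes, the most variable within groups of the Nex model. It was 15.2, 6.27 and 7.48 FPKM in Nex controls 1 to 3 and 4.89, 5.88 and 11.6 FPKM in cKO 1 to 3. Control 1 and cKO 3 stood high and the other 4 libraries lay between 4.89 and 7.48 FPKM, so the groups overlapped. The log2 change was -0.32 (SE 0.34, 95% interval -1.09 to 0.45, adjusted p = 0.619), and it was 0.03 without control 1 (adjusted p = 0.973) and -0.65 without cKO 3 (adjusted p = 0.228). Its SD within groups, 0.60 on the log2 scale, exceeded that of 99.4% of tested genes, whose median was 0.12. Nr4a2 was 13.7 and 16.1 FPKM in Camk2a controls and 10.6 and 11.2 in cKO. Both cKO libraries lay below both controls, with a mean of 0.733 of the control mean (10.9 FPKM ± 0.389 against 14.9 ± 1.70, SD, n = 2). The log2 change was -0.41 (SE 0.11, 95% interval -0.69 to -0.14, unadjusted p = 0.0102, adjusted p = 0.516). These values rest on 762 to 1289 reads, whose counting error is 2.79% to 3.62%. Such errors cover counting only, not the spread between libraries.

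The paralogues are also induced by activity. Nr4a3 fell by 0.57 on the log2 scale in the Nex model (SE 0.11, adjusted p = 0.0152), from 6.06, 5.57 and 6.63 FPKM in controls to 3.30, 3.66 and 4.37 FPKM in cKO. That call was lost without control 1, control 3 or cKO 1 (adjusted p = 0.0623, 0.0739 and 0.0603). Nr4a1 was 73.0, 60.6 and 46.2 FPKM in controls and 28.5, 26.8 and 60.5 in cKO (log2 change -0.70, SE 0.29, adjusted p = 0.184), again with cKO 3 among the high libraries. In the Camk2a model both cKO libraries lay below both controls for all 3 Nr4a genes, against 37.3% of all tested genes whose groups did not overlap in either direction. The log2 changes there were -0.65 for Nr4a1 (adjusted p = 0.420), -0.41 for Nr4a2 and -0.48 for Nr4a3 (adjusted p = 0.650).

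Of 7 other activity-induced genes 0 passed the test in the Nex model, and their values also varied between libraries of one group. Fos was 34.8 FPKM in cKO 3 and 6.49 to 21.5 FPKM in the other libraries. Junb was 99.8 FPKM in cKO 3 and 22.7 to 53.2 FPKM elsewhere. The high Nr4a2 libraries, control 1 and cKO 3, were thus also the 2 libraries with the most Fos and Junb. They also held the most Fosb (4.07 and 6.90 FPKM, at most 3.71 elsewhere) and Bdnf (6.85 and 6.50 FPKM, at most 6.09 elsewhere). For Npas4 they were again highest (5.93 and 6.76 FPKM), with control 2 close behind at 5.83 FPKM. Arc and Egr1 did not share that order. They were highest in control 1 (225 and 177 FPKM), but control 2, low in Nr4a2, held more of both (186 and 123 FPKM) than cKO 3 (147 and 116 FPKM). Arc was 163 and 138 FPKM in Camk2a controls and 99.5 and 86.9 in cKO (log2 change -0.68, adjusted p = 0.369), and Egr1 was 90.0 and 69.9 against 50.5 and 43.3 (log2 change -0.75, adjusted p = 0.408). The other 5 had changes of -0.51 (Fos), -0.13 (Npas4), -0.05 (Bdnf), 0.13 (Junb) and 0.54 (Fosb), and 0 of 7 passed. The part of neuronal activity at dissection in the Nr4a2 values was not tested.

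**Figure D1:**
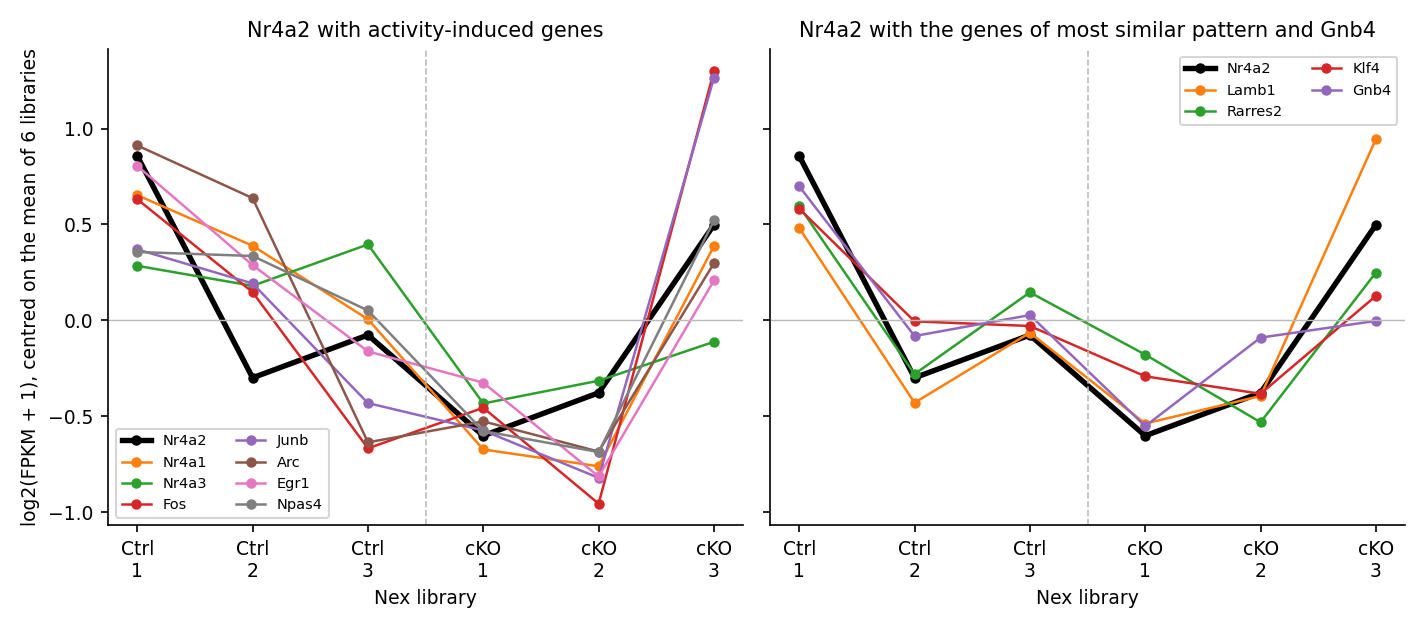
Log2(FPKM + 1) of Nr4a2 (black) and other genes in the 6 Nex libraries, each centred on its own mean; lines join the values of one gene and the libraries have no order. Nr4a2, Fos and Junb stood above their means in control 1 and cKO 3, and Nr4a2 and Gnb4 were both highest in control 1. In control 2 Fos and Junb also stood above their means, while Nr4a2 stood below its own.

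Nr4a2 also marks claustrum and its related layer 6 cells, and the dopamine neurons of the midbrain. The claustrum marker Gnb4 was 8.66 FPKM in Nex control 1 and 3.06 to 5.06 FPKM in the other 5 libraries (log2 change -0.43, adjusted p = 0.277), while Car3 was 0.720 FPKM in control 1 and at most 0.374 FPKM elsewhere. Of 5 tested genes of that list 2 were higher in the Nex model: Synpr, a synaptic vesicle protein, rose by 0.75 (adjusted p = 0.0125) and Nr2f2, a nuclear receptor, by 0.78 (adjusted p = 0.00191). The list summed to 55.4 to 78.2 FPKM in controls and 77.6 to 94.9 FPKM in cKO, most of it from Synpr and Lxn. The dopamine transporter gene Slc6a3 was at or below 0.0348 FPKM in all 10 libraries. The vesicular monoamine transporter gene Slc18a2 was 0 to 0.610 FPKM in the Nex libraries and 1.38 to 2.22 FPKM in the Camk2a libraries, with the highest value of each model in a control. The share of claustral tissue in the Nr4a2 values was not tested.

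Cplx3 did not pass the test in either model. It was 8.52, 8.07 and 8.51 FPKM in Nex controls and 7.43, 8.76 and 4.86 FPKM in cKO. The highest of all 6 libraries was cKO 2 and the lowest cKO 3, so the groups overlapped. The log2 change was -0.26 (SE 0.17, 95% interval -0.64 to 0.12, adjusted p = 0.396) and -0.05 without cKO 3 (adjusted p = 0.809). Cplx3 was 7.24 and 7.67 FPKM in Camk2a controls and 6.49 and 5.22 in cKO. Both cKO libraries lay below both controls, with a cKO mean of 5.85 FPKM ± 0.898 against 7.46 ± 0.304 (SD, n = 2). The log2 change was -0.31 (SE 0.13, 95% interval -0.61 to -0.0043, unadjusted p = 0.0477, adjusted p = 0.706), on 259 to 448 reads per library.

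Complexins act with the SNARE proteins of the synaptic vesicle. Of 8 such genes tested in the Nex model, Cplx3 included, 2 were lower and 0 higher. Cplx2, a complexin of excitatory terminals, fell by 0.39 (263, 275 and 265 FPKM against 200, 223 and 191, SE 0.09, adjusted p = 0.0252). Stx1a, a plasma membrane SNARE, fell by 0.45 (190, 191 and 196 FPKM against 158, 133 and 132, SE 0.09, adjusted p = 0.0158). Cplx2 lost its call without any one control (adjusted p = 0.0949, 0.106 and 0.1004 without controls 1 to 3) and without cKO 1 (0.104). Stx1a lost its own without any one control (adjusted p = 0.0690, 0.0635 and 0.0790). Cplx1 had a log2 change of -0.16 (adjusted p = 0.467), and Cplx4 was 0 in all 10 libraries. The Camk2a model had 0 of 8 past the threshold, with changes of 0.11 for Cplx1 and 0.09 for Stx1a.

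Neurogliaform interneurons also express Cplx3. Of 7 tested markers of that list in the Nex model 1 was higher, the GABA-synthesising enzyme gene Gad2 (log2 change 0.63, SE 0.08, adjusted p = 0.00203), and 0 were lower. Of the 7 changes 5 were positive and 2 negative (median 0.22). Sv2c, Kit and Gad1 had changes of 0.33 (adjusted p = 0.134), 0.28 (adjusted p = 0.148) and 0.22 (adjusted p = 0.340). Reln and Npy had changes of 0.08 (adjusted p = 0.706) and -0.06 (adjusted p = 0.862), and Ndnf stayed under the filter at 0.550 to 1.02 FPKM. The list summed to 402 to 427 FPKM in controls and to 345 to 483 FPKM in cKO. None of its markers was at 0, and their part in the Cplx3 values was not tested.

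Moxd1 was the lowest of the 5 in every group. It was 1.73, 1.74 and 1.61 FPKM in Nex controls and 1.75, 1.31 and 1.58 FPKM in cKO, with overlapping groups (log2 change -0.08, SE 0.11, 95% interval -0.34 to 0.17, adjusted p = 0.703). It was 1.33 and 1.31 FPKM in Camk2a controls and 1.19 and 1.17 in cKO (log2 change -0.09, SE 0.14, 95% interval -0.44 to 0.26, adjusted p = 0.938). Both cKO libraries lay below both controls, at 0.896 of their mean. They rest on 63 to 83 reads, with a counting error of 10.98% to 12.6%. Of the other copper monooxygenases, Moxd2 was 0 in all 10 libraries and Dbh at most 0.245 FPKM. Pam, which amidates neuropeptides, was 19.6 and 21.4 FPKM in Camk2a controls and 16.2 and 21.3 in cKO (adjusted p = 0.901). It shares a joined locus in the 2.5-month table and was not tested there.

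**Figure D2:**
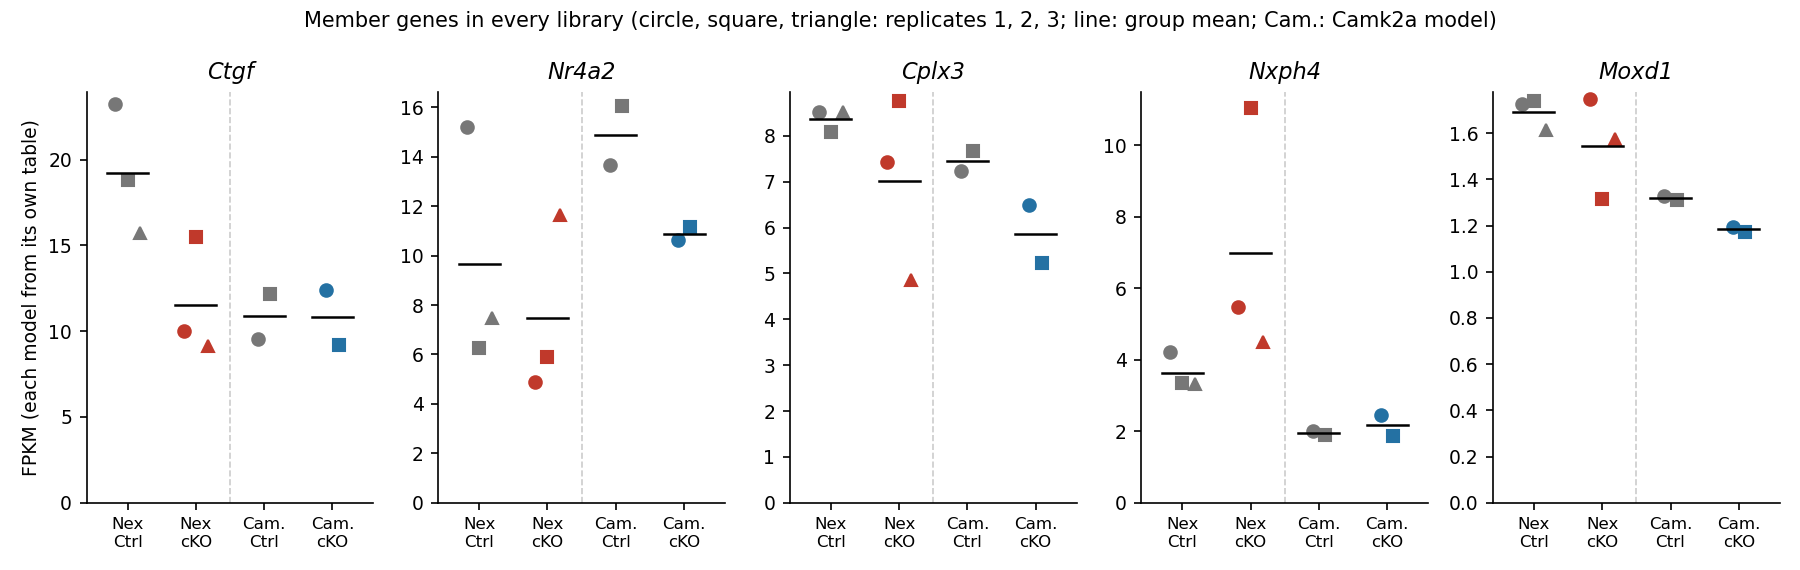
FPKM of each member gene in every library of the Nex and Camk2a models, with a line at each group mean; levels are comparable within a model only. In the Nex model Ctgf lies below and Nxph4 above control in all 3 cKO libraries, and Nr4a2 is split by control 1 and cKO 3.

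Over the 5 genes the median log2 change in the Nex model was -0.26 (4 of 5 negative), against -0.04 over all tested genes, of which 59.5% were negative. Groups did not overlap for 2 of 5, Ctgf and Nxph4, in opposite directions, against 30.4% of all genes. The same 2 had an unadjusted p under 0.05, against 23.5% of all genes. Within groups, the SD on the log2 scale stood at percentile 99.4 of all tested genes for Nr4a2, 98.3 for Nxph4, 96.2 for Ctgf, 92.97 for Cplx3 and 30.5 for Moxd1. In the Camk2a model the median was -0.09 (4 of 5 negative), against -0.01 over all genes, of which 52.5% were negative. There the groups did not overlap for 3 of 5 (Nr4a2, Cplx3 and Moxd1, all below control), against 37.3% of all genes. An unadjusted p under 0.05 was found for 2 of 5 (Nr4a2 and Cplx3), against 6.96% of all genes. That of Cplx3 was 0.113, 0.196 and 0.167 without control 1, control 2 and cKO 2, and that of Nr4a2 0.0910 without control 2.

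The difference between the changes, (Nex cKO minus control) minus (Camk2a cKO minus control), was tested on 10116 genes found in both tables, of which 0.554% passed. None of the 5 did. Ctgf had a difference of -0.69 (SE 0.30, unadjusted p = 0.0408, adjusted p = 0.358) and Nxph4 of 0.62 (SE 0.36, adjusted p = 0.494). The differences were 0.09 for Nr4a2 (SE 0.47, adjusted p = 0.948), 0.05 for Cplx3 (SE 0.24, adjusted p = 0.940) and 0.0031 for Moxd1 (SE 0.16, adjusted p = 0.996). Driver, age and table differ together between the models.

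Of 19 further genes reported in subplate or layer 6b neurons, 13 were tested in the Nex model, of which 1 was lower and 0 higher, with a median log2 change of 0.01 (8 positive, 5 negative). The lower gene was Adra2a, the alpha-2A adrenergic receptor. It was 5.96, 3.94 and 4.83 FPKM in controls and 2.12, 1.94 and 2.13 FPKM in cKO, groups that did not overlap. It fell by 0.94 on the log2 scale (SE 0.13, adjusted p = 0.00287) and kept its call without any one library (adjusted p = 0.00344 to 0.0164). Adra2a was 7.28 and 9.14 FPKM in Camk2a controls and 4.73 and 4.49 in cKO (log2 change -0.71, adjusted p = 0.390), and the difference between the models was -0.23 (adjusted p = 0.649).

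Among the 12 that did not pass in the Nex model were receptors and secreted or structural proteins. Lpar1, a lysophosphatidic acid receptor, had a log2 change of -0.05 (adjusted p = 0.846) and Drd1, a dopamine receptor, of -0.09 (adjusted p = 0.715). Serpini1 (neuroserpin) had the largest positive change, 0.25 (adjusted p = 0.133). Svil, Trh, Inpp4b, Hcrtr2 and Nfe2l3 stayed under the filter, and Tmem163 was joined with Mgat5. Hcrtr2, the orexin receptor that layer 6b cells are known for, was 0.440 to 0.773 FPKM in the Nex libraries with overlapping groups. In the Camk2a table, where it was also under the filter, it was 0.670 and 0.599 FPKM in controls and 0.292 and 0.203 in cKO, groups that did not overlap. Nfe2l3 was 0.644, 0.654 and 0.678 FPKM in Nex controls and 0.295, 0.370 and 0.114 in Nex cKO. In the Camk2a table it was 0.450 and 0.834 FPKM in controls and 0.302 and 0.640 in cKO, with overlapping groups. Of 14 tested in the Camk2a model 0 passed, 13 of 14 were negative and the median was -0.12.

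The corticothalamic neurons of layer 6 are the nearest neighbours of layer 6b and were measured in the same libraries. Of 8 tested genes 6 were lower in the Nex model and 0 higher, and all 8 changes were negative (median -0.47). With quantile normalization 4 were lower. Syt6, a synaptotagmin, went from 7.15, 6.42 and 6.73 FPKM to 2.46, 2.97 and 2.16 (adjusted p = 0.000299), and Hs3st4, a heparan sulfate sulfotransferase, from 34.7, 30.7 and 32.1 to 21.6, 22.2 and 21.5 (adjusted p = 0.0015). Foxp2, Tbr1, Fezf2 and Tle4, all transcriptional regulators of deep layers, also fell, with changes of -0.73, -0.46, -0.49 and -0.36. Syt6, Hs3st4, Foxp2 and Tbr1 kept their calls without any one library. Tle4 and Fezf2 lost theirs without control 1 (adjusted p = 0.0789 and 0.159), control 2 (0.0666 and 0.110), control 3 (0.120 and 0.128) or cKO 1 (0.103 and 0.0881). Ntsr1, a neurotensin receptor, and Crym had changes of -0.21 (adjusted p = 0.475) and -0.19 (adjusted p = 0.649). Whether the 8 genes and the 5 differ from each other as lists was not tested. None of the 8 passed in the Camk2a model, whose median was -0.19.

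**Figure D3:**
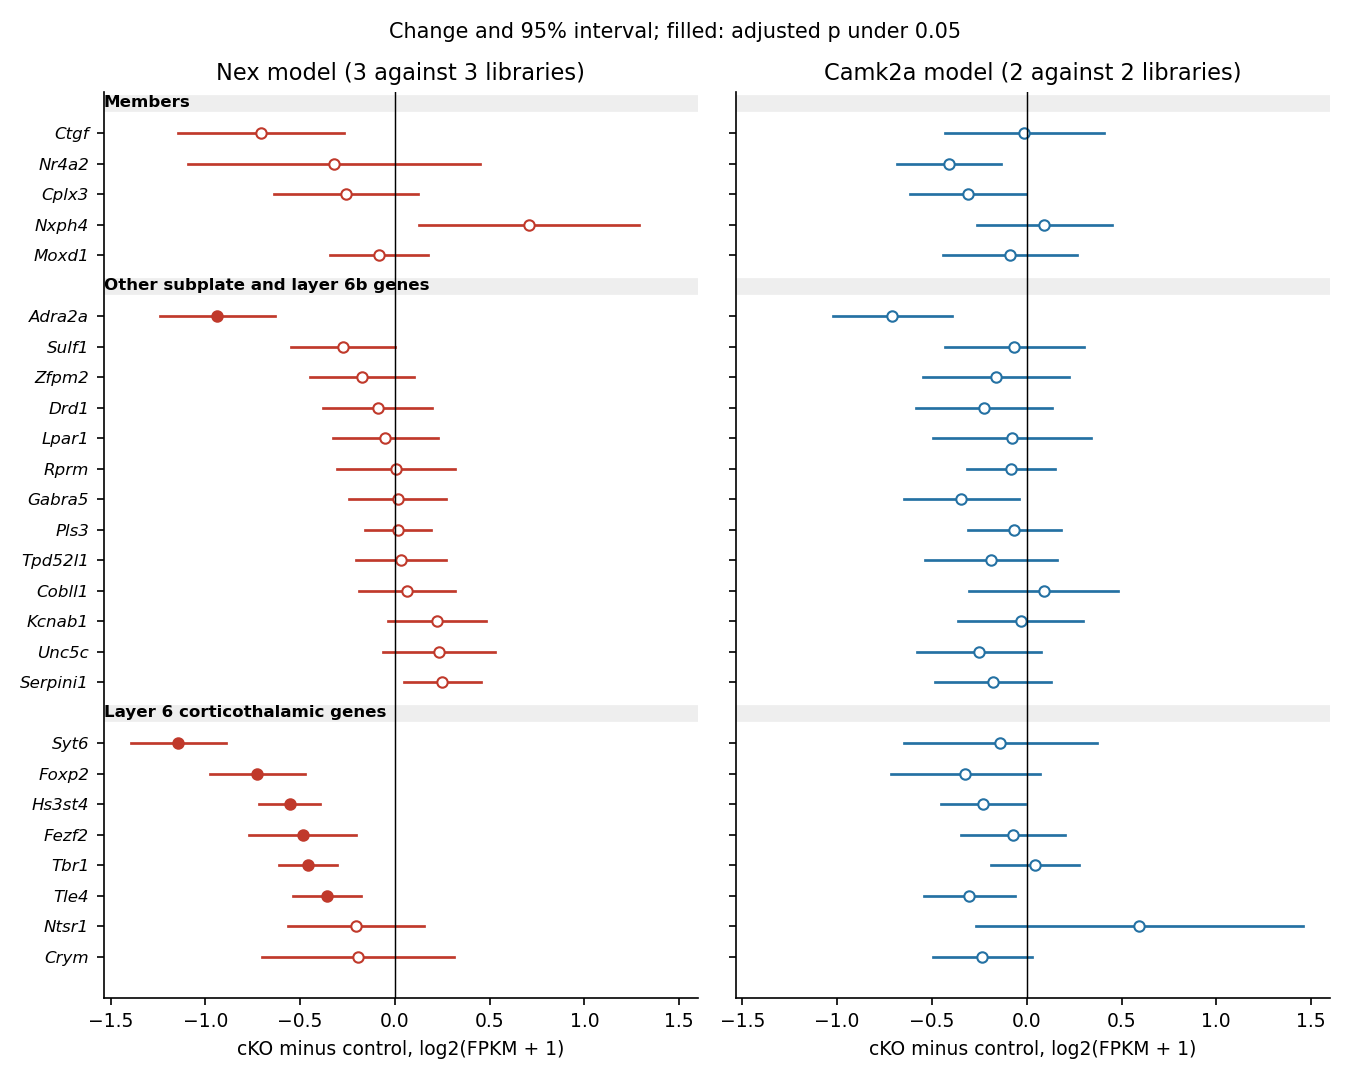
Change of each gene, cKO minus control, in log2(FPKM + 1) with its 95% interval, for the 5 member genes, 13 other subplate and layer 6b genes and 8 corticothalamic genes; filled points have an adjusted p under 0.05. In the Nex model 0 members, Adra2a and 6 corticothalamic genes are filled, and in the Camk2a model no point is.

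White matter lies directly under layer 6b, and the share of it in a dissection can vary. Of 8 oligodendrocyte genes 0 passed in the Nex model, but 7 were negative (median -0.28), against 59.5% of all tested genes. The list summed to 1371 to 1485 FPKM in controls and 1061 to 1280 FPKM in cKO. Mbp, a main myelin protein gene, made up most of that sum, at 980 to 1043 FPKM in controls and 733 to 878 FPKM in cKO. Mbp had a change of -0.29 (adjusted p = 0.168) and Mog of -0.30 (adjusted p = 0.120). In the Camk2a model the median was 0.03 and the sums were 512 to 537 against 522 to 524 FPKM. The part of dissection depth in the values of the 5 genes was not tested. Of general excitatory neuron genes, Slc17a7 was 464 to 589 FPKM in the Nex libraries (log2 change -0.11, adjusted p = 0.616). Neurod6, the gene at whose locus Nex-Cre is placed, fell by 0.80 (adjusted p = 0.00718), and Neurod2 rose by 0.35 (adjusted p = 0.0354). The Neurod2 call was lost without control 1, 2 or 3 or cKO 1 or 2 (adjusted p = 0.142, 0.0558, 0.144, 0.119 and 0.0673).

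For each member, the genes whose centred log2 values over the 6 Nex libraries lay nearest to its own were found by root mean square difference. This is a description over 6 libraries. Nearest to Ctgf were Klf10 (difference 0.0937), a TGF-beta-induced transcription factor, Snhg6 (0.103) and Kcns1 (0.106), a potassium channel subunit. Klf10 was 20.3, 17.0 and 12.1 FPKM in controls and 8.97, 11.7 and 7.83 FPKM in cKO (adjusted p = 0.0502), and Kcns1 was 27.3, 24.7 and 21.5 against 15.2, 19.7 and 11.4 FPKM (adjusted p = 0.0486). Like Ctgf, both were highest in control 1 and lowest in cKO 3. That pattern, and adjusted p near that of Ctgf, follow from picking these genes by their likeness to Ctgf.

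Nearest to Cplx3 were Rcn3 (0.0264), Rpl11 (0.0405), a ribosomal protein gene, and Usmg5 (0.0440), an ATP synthase subunit gene. Rpl11 was 297 to 329 FPKM in 5 libraries and 211 FPKM in cKO 3, and Usmg5 was 587 to 705 FPKM in those 5 and 450 FPKM in cKO 3. These genes were picked for their likeness to Cplx3, so their low values in cKO 3 follow from the choice. Nearest to Nr4a2 were Lamb1 (0.246), Rarres2 (0.253) and Klf4 (0.258), at larger distances, and to Nxph4 Nes (0.165), Rasa4 (0.165) and BC030867 (0.174). The last 3 were all highest in cKO 2, which again follows from the choice by likeness. There Nes, the intermediate filament gene of progenitors, reached 3.25 FPKM against 0.897 to 2.06 FPKM elsewhere. Moxd1 spanned 0.25 log2 units over the 6 libraries, under the 0.5 required, and no genes were drawn for it.

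Around the 5 start sites, 95 protein-coding genes lay within 500 kb, of which 50 were tested in the Nex model. Of these 5 were higher and 2 lower (14%, against 8.53% of all genes). That count includes Inhbe, which passed the filter only through its cKO libraries. The share of all genes was taken under the same filter and can hold such genes too. The 2 shares were not tested against each other. In the Camk2a model 0 of 48 passed. Around Nxph4, 4 of 24 passed in the Nex model, Inhbe again included. Tac2, the neurokinin B precursor 189.9 kb from the Nxph4 start (chr10:127724478-127731768), was 7.78, 6.55 and 7.12 FPKM in controls and 29.1, 29.97 and 23.1 FPKM in cKO. The lowest cKO library lay far above the highest control (log2 change 1.80, SE 0.11, adjusted p = 2.8e-05). Stat6, a transcription factor of interleukin signalling 108.4 kb away, rose from 3.66 to 7.58 FPKM (log2 change 0.88, adjusted p = 0.000264).

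Inhbe, an activin subunit gene on the other side (chr10:127348857-127354411), had 0.194 FPKM in controls and 1.24 in cKO (log2 change 0.91, adjusted p = 0.00176). It passed the filter only through its cKO libraries, so it had to differ and supports no count of neighbours. R3hdm2, at 35.2 kb, fell by 0.32 (adjusted p = 0.0390). Tac2 and Stat6 kept their calls without any one library, and R3hdm2 lost its call without control 1, 2 or 3 or cKO 1 (adjusted p = 0.124, 0.111, 0.159 and 0.104). Lrp1, a lipoprotein receptor gene and the nearest neighbour of Nxph4 at 3.6 kb, had a change of -0.06 (adjusted p = 0.679), and Shmt2, at 12.1 kb, of -0.02 (adjusted p = 0.941). The change of Nxph4 itself was 0.71 with an SE of 0.26, while the SE was 0.08 for Stat6 and 0.11 for Tac2.

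Around Cplx3, 3 of 21 tested genes passed: Rpp25 (0.45, adjusted p = 0.0398) and Stra6 (0.73, adjusted p = 0.0377) were higher and Ubl7 (-0.30, adjusted p = 0.0481) lower. Leaving out control 1, 2 or 3 or cKO 2 ended all 3 calls, with adjusted p of 0.0561, 0.136, 0.117 and 0.0786 for Rpp25, 0.114, 0.0910, 0.133 and 0.0591 for Stra6 and 0.114, 0.101, 0.194 and 0.0526 for Ubl7. Rpp25 lost its call without cKO 3 as well (0.0731), and Stra6 and Ubl7 without cKO 1 (0.112 and 0.163). Lman1l, 0.8 kb from the Cplx3 start, was not tested. Ulk3 and Csk, the nearest tested genes on either side of Cplx3, had changes of -0.31 (adjusted p = 0.0674) and -0.10 (adjusted p = 0.564). Ctgf, Moxd1 and Nr4a2 had 0 of 3, 0 of 4 and 0 of 1 tested neighbours past the threshold. Enpp1 and Enpp3, on one side of Ctgf, were not tested, and the nearest tested genes on either side, Med23 and Moxd1, had changes of -0.11 and -0.08, with -0.01 for Stx7 beside Moxd1 and -0.10 for Gpd2, the one tested gene within 500 kb of Nr4a2.

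**Figure D4:**
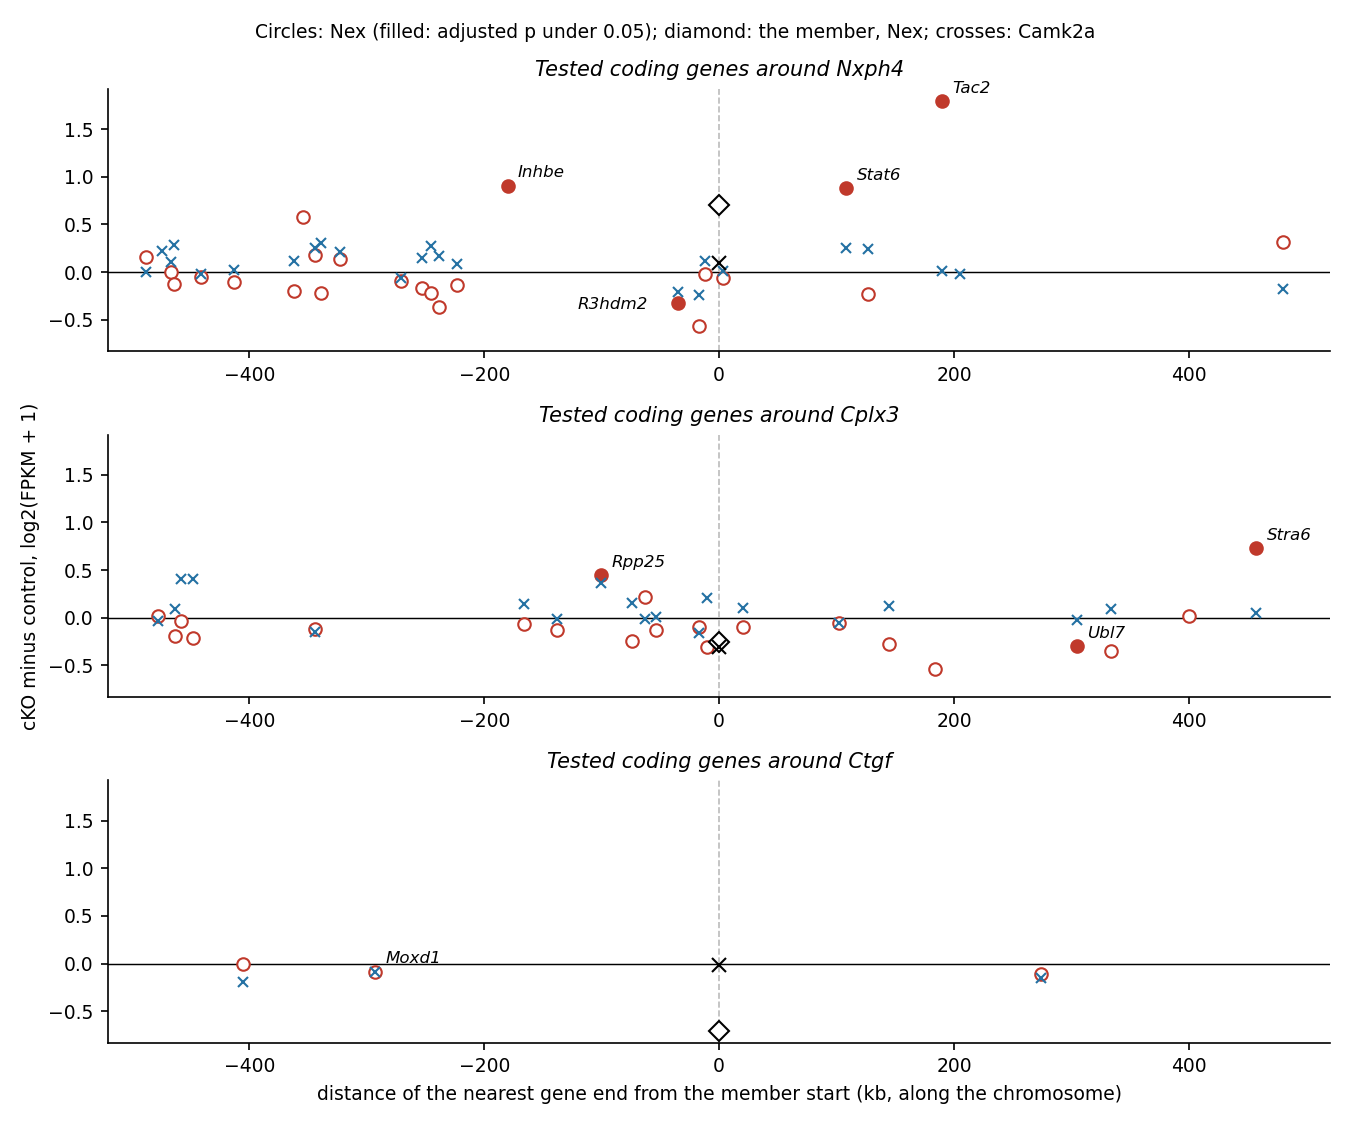
Change in log2(FPKM + 1), cKO minus control, of tested protein-coding genes within 500 kb of the starts of Nxph4, Cplx3 and Ctgf, against their distance along the chromosome in kb; circles are the Nex model (filled where the adjusted p is under 0.05), crosses the Camk2a model and the diamond the member gene in the Nex model. The filled points of Tac2 (1.80), Stat6 (0.88) and Inhbe (0.91) stand highest around Nxph4, and the tested genes around Ctgf lie near 0, with Ctgf itself at -0.71. Inhbe passed the filter only through its cKO libraries.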

How the data were processed

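The authors deposited FPKM values in 2 tables, 1 for the 6 Nex libraries (29610 loci, 4463 unnamed) and 1 for the 4 Camk2a libraries (54532 genes with GRCm38 positions). Libraries were made from total RNA (RNAiso Plus) with an NEBNext Ultra II RNA kit, per the labels' protocols. Per the submitters' processing notes, cutadapt, STAR, Cufflinks 2.2.1 and DESeq2 are named, with the builds mm10 and GRCm38, and the roles of the tools are not given in the sources used here. Whether counting used strand is likewise not given, so reads of overlapping genes cannot be told apart.

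Each table was fitted apart. Unnamed loci were left out of the tests, as were 1864 and 105 entries that repeated a name with a lower mean. For Cplx3 this left out a second entry of at most 0.215 FPKM. A gene was tested if at least 3 Nex or 2 Camk2a libraries, the size of the smaller group, reached 1 FPKM. Values were compared as log2(FPKM + 1), a scale that understates changes of low genes, by limma 3.58.1 under R 4.3.3, with variances moderated along an intensity trend (eBayes). Two-sided p-values were adjusted by Benjamini-Hochberg over all tested genes and called under 0.05. The scripts were tested on simulated data. In the 3-month table FPKM times gene length gave whole reads within a tolerance of 0.1. The 2.5-month table allowed no such recovery.

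The members, the 15 gene lists and the tests were chosen with earlier results of these data known. Named were the members, their paralogues, listed genes past the threshold, up to 2 further genes per cell type list, neighbours within 500 kb that passed or lay next to a member, and the 3 nearest genes by pattern. Other genes named from the lists (Serpini1, Lpar1, Drd1, Lum, Ndnf, Lxn, Hcrtr2, Nfe2l3, Amotl2, Yap1, Fos, Junb, Arc and Egr1) were chosen after their values were seen. The same holds for Fosb, Npas4, Bdnf, Sv2c, Kit and Gad1. From the vascular list Rgs5, Kcnj8, Pdgfrb, Abcc9, Flt1, Pecam1, Kdr and Vwf were named, more than the 2 per list. Some listed items are not reported here.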

Additional observations from a re-analysis of the deposited data

Results flagged for a closer look

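The changes of 2 genes that appear beside the members differed between the models by a test of the difference itself, limma over 10116 genes. Tac2, the neurokinin B precursor that lies near Nxph4, had a difference of 1.78 on the log2 scale (SE 0.19, adjusted p = 0.00155). It rose in all 3 Nex cKO libraries, while in the Camk2a model it was 1.98 and 2.31 FPKM in controls and 2.53 and 1.86 in cKO. Cldn5, the endothelial tight junction gene, had a difference of -1.20 (SE 0.22, adjusted p = 0.0390). It was below all controls in the 3 Nex cKO libraries. In the Camk2a model it was 16.2 and 16.4 FPKM in controls and 26.3 and 23.3 in cKO (log2 change 0.57, adjusted p = 0.369). Driver, age and table differ together between the models.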

How the results depend on the processing

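No member passed the threshold under the main settings. With the replicate block Ctgf passed in the Nex model (-0.71, adjusted p = 0.0360), so that 1 member passed, and 272 genes over the table were lower in place of 509, but same-numbered samples share only a number: their deviations from the group means correlated at 0.017, -0.104 and -0.096 in the Nex model, and no control correlated best with the cKO library of its own number. Leaving out 1 Nex library gave changes of -0.65 to 0.028 for Nr4a2, 0.37 to 0.94 for Nxph4, -0.41 to -0.05 for Cplx3, -0.92 to -0.57 for Ctgf and -0.14 to -0.02 for Moxd1. It left 0 to 1 members past the threshold, 443 to 635 genes higher and 160 to 685 lower. Leaving out 1 Camk2a library, where the lone sample is assumed to vary like the other group, gave -0.21 to 0.18 for Ctgf, -0.037 to 0.22 for Nxph4, -0.52 to -0.30 for Nr4a2, -0.44 to -0.18 for Cplx3 and -0.095 to -0.080 for Moxd1, with no gene past the threshold. The differences of changes ranged from -0.24 to 0.44 for Nr4a2, 0.28 to 0.84 for Nxph4, -0.11 to 0.26 for Cplx3, -0.91 to -0.50 for Ctgf and -0.054 to 0.070 for Moxd1, with 14 to 96 genes past the threshold.

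The change of Ctgf in the Camk2a model was positive with quantile normalization (0.0046), median ratio rescaling (0.0022) and voom on recovered reads (0.034). The Moxd1 difference was -0.070 with quantile normalization. A pseudocount of 0.1 left 34 genes with a difference in place of 56. Without a filter 2 other subplate and layer 6b genes passed, and with a filter of 5 FPKM, which drops Nxph4, Moxd1 and Adra2a, 0 did and 197 genes were higher in place of 560. Median ratio rescaling left 325 genes lower. Of the corticothalamic genes 4 were lower with quantile normalization, the block or 5 FPKM and 5 with median ratio rescaling, no filter or no trend. Fezf2 lost its call in all 6 of these settings and Tle4 with quantile normalization and the block. Cldn5 lost its own with quantile normalization, no trend, no filter and 5 FPKM, and Cplx2 and Stx1a with quantile normalization and the block. Neurod2, R3hdm2, Rpp25, Stra6 and Ubl7 each lost theirs in at least 2 settings. Of the genes past the threshold in the Nex model 52.4% were higher, and 65.1% with median ratio rescaling, 64.6% with the block, 63.6% without a filter and 36.2% at 5 FPKM. In the Camk2a model 1 gene was higher at 5 FPKM, with robust variance moderation and with voom, and 5 without the intensity trend. DESeq2 and edgeR were not run, and the recovered reads of the 3-month table were fitted with voom alone. Within 250 kb and 1000 kb of the members, 5 and 9 neighbours passed in place of 7, Inhbe included each time. The cause of these shifts was not tested. Depth limits Nxph4 and Moxd1 most, at 53 to 83 reads in the Camk2a libraries.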
